A study of Homo sapiens with 6 samples.

Results

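BAG3, DNAJB2, HSPH1, DNAJB1 and HSP90AA1 are heat shock and chaperone genes whose start sites were profiled for CFAP20 in human RPE1 cells. They were taken by gene symbol, 5 of the 3000 transcription start sites (TSSs) of the density tables, with 1 TSS for each gene. The list was selected on the difference in TY-CFAP20 and WT density at the TSS, in which it had stood above matched genes in earlier work on these tables. Its differences between the groups are therefore given as a description and without a test. The label held for their annotation, since each gene encodes a chaperone or a chaperone partner.

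RPE1 is an immortalised line from human retinal pigment epithelium, and both groups were an untreated iCas9 derivative carrying the p53/puro double knockout. The first group was this line itself, called WT, which carries no TY tag, so that its anti-TY signal is the background of the antibody (3 libraries). The second lacked endogenous CFAP20 and expressed TY-CFAP20, the protein with a TY epitope tag (3 libraries). CFAP20 is best known from cilia, and here its signal on chromatin was measured. The labels do not say whether the second line is 1 clone or which promoter drives the tagged protein. Chromatin immunoprecipitation with an antibody to TY used 84 µg of WT chromatin with 74 ng of Drosophila chromatin as spike-in, and 60 µg with 53 ng for TY-CFAP20.

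The deposited values are averages over the libraries of each group, in spike-in normalised read density at 1001 positions from 5 kb upstream to 5 kb downstream of each TSS. No error, n or p-value can therefore be given for a difference, and each one below compares 2 averages. Every value could be written as a sum of 3 fixed steps per group. The steps were read from these same values, so this is not an independent check of them. If 1 step is 1 fragment of 1 library, the averages at these genes stood for at least 7.05 (DNAJB2) to 13.5 (BAG3) overlapping fragments per position in WT and at least 16.3 (DNAJB1) to 31.0 (BAG3) in TY-CFAP20. At most they stood for 29.2 to 55.9 and 38.3 to 72.8. Of 8 pigment epithelium markers, 4 were in the TSS list. OTX2 had a BrU-seq density of 10.0, MITF of 1.40 and RLBP1 of 0.235, while RPE65, the defining enzyme of this tissue, is listed with no value.

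Heat shock genes encode chaperones, which keep other proteins folded. The heat shock factor HSF1 binds inverted repeats of GAA, the heat shock elements, in their promoters, and RNA polymerase II pauses just downstream of many of these starts and is released upon stress. HSP90AA1 encodes the stress-inducible cytosolic Hsp90, and HSPH1 an Hsp110 protein that exchanges the nucleotide of Hsp70. DNAJB1 and DNAJB2 encode J-domain proteins, which hand substrates to Hsp70, and BAG3 encodes a co-chaperone that binds Hsp70 and takes part in selective autophagy. The cells here were not treated, so the values describe these genes without added stress.

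The start sites lay on 5 chromosomes, in hg38 coordinates. BAG3 starts at position 119651370 of chromosome 10 (plus strand), DNAJB2 at 219279267 of chromosome 2 (plus), HSPH1 at 31161927 of chromosome 13 (minus), DNAJB1 at 14518420 of chromosome 19 (minus) and HSP90AA1 at 102087191 of chromosome 14 (minus). The GENCODE start of the reference transcript (MANE Select) lay downstream of these positions, by 10 bp at BAG3, 99 bp at DNAJB2, 23 bp at HSPH1, 23 bp at DNAJB1 and 147 bp at HSP90AA1. Longer annotated transcripts run across the starts of HSPH1, DNAJB1 and HSP90AA1, so that bases upstream of these 3 starts also lie within the same genes. The sequences just before the coding transcripts are shown for the 3 genes with heat shock elements there and for BAG3, which had the largest difference. Each runs 5′ to 3′ along the gene over 150 bases, read from the hg38 reference, and capitals mark GAANNTTC or TTCNNGAA.
HSPH1, chr13:31161928-31162077, minus strand: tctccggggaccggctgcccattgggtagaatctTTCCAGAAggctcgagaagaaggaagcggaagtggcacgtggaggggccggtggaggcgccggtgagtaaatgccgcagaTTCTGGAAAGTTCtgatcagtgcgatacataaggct
DNAJB1, chr19:14518408-14518557, minus strand: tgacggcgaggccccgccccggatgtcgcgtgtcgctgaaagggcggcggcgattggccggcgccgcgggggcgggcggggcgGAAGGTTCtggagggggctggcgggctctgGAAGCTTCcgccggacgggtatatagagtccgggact
HSP90AA1, chr14:102087045-102087194, minus strand: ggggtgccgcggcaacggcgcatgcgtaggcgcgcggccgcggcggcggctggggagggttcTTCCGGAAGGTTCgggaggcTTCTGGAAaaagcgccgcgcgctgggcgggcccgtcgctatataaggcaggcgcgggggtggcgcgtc
BAG3, chr10:119651230-119651379, plus strand: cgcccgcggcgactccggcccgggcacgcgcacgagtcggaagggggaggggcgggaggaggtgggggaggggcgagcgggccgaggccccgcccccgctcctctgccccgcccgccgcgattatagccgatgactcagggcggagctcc

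HSPH1 held a run of 3 alternating units, TTCTGGAAAGTTC, from -36 to -24 bp of its TSS, and a pair of units further upstream from -116 to -109 bp. DNAJB1 held 2 separate pairs, GAAGGTTC from -54 to -47 bp and GAAGCTTC from -24 to -17 bp. At HSP90AA1 the run of 3 units, TTCCGGAAGGTTC, lay from 59 to 71 bp and a further pair from 79 to 86 bp, downstream of the TSS of the density tables but upstream of the GENCODE start at 147 bp. BAG3 had no pair from -250 to 50 bp. Its nearest, GAAGTTTC from 53 to 60 bp, lay just outside that window. DNAJB2 had no pair between -400 and 200 bp. In the RefSeq promoters nearest to these starts (250 bases before to 50 after), 2 of the 5 genes, DNAJB1 and HSP90AA1, held a pair of units, as did 13.5% of 35116 RefSeq promoters. The RefSeq promoter of HSPH1 belongs to a start at -461 bp. In the same window around the TSSs of the tables the 2 genes were HSPH1 and DNAJB1, and the share over all 3000 TSSs was 11.2%. The 3-unit run was in 0.490% of the RefSeq promoters and 0.367% of the TSS windows, which is 11 TSSs, HSPH1 among them. Both motifs were searched on both strands, and the 3-unit run contains the 2-unit pair.

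TY-CFAP20 was higher than WT within 500 bp of the TSS at all 5 genes, as it was at 91.2% of all TSSs. The median difference over the 5 genes was 1.29 and that over all TSSs 0.571, with 25th and 75th percentiles of 0.267 and 0.846. After 0.668 (the median flank density of WT) had been added to both groups, TY-CFAP20 exceeded WT by 1.5-fold or more at 4 of the 5 genes and at 34.9% of all TSSs, or 35.1% of those with a WT density of 0.2 or more. With this addition none of the 5 genes reached 2-fold, while 1.77% of all TSSs did. Without it the ratios were 2.85 at DNAJB2, 2.78 at HSPH1, 2.37 at BAG3, 2.28 at HSP90AA1 and 1.78 at DNAJB1. The share of all TSSs at 2-fold without it was not counted. Since the list was chosen for this contrast, nothing is read from these counts.

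At BAG3 the TY-CFAP20 density was 3.10 and the WT density 1.30, a difference of 1.79 that ranked 9 among 3000. Both groups were high at this gene, and its WT density ranked 50. DNAJB12, the other gene of the chaperone lists on chromosome 10, also had a high WT density, 1.33. Copy number of chromosome 10 was not examined, and its part in the values at BAG3 was not tested. HSPH1 had densities of 2.17 and 0.780, a difference of 1.39 at rank 59. Its WT density was close to the median of all TSSs, 0.782. HSP90AA1 had 2.30 and 1.01, a difference of 1.29 at rank 101. DNAJB2 had 1.94 and 0.681, a difference of 1.26 at rank 118. It had the lowest WT density of the 5 genes and the largest ratio without pseudocount, 2.85. DNAJB1 had 1.63 and 0.915, a difference of 0.7125 at rank 1104, which is inside the middle range of all TSSs. On the log2 scale with the pseudocount the ratios were 0.97 at HSPH1, 0.95 at DNAJB2, 0.93 at BAG3, 0.82 at HSP90AA1 and 0.54 at DNAJB1, against a median of 0.47.

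**Figure D1:**
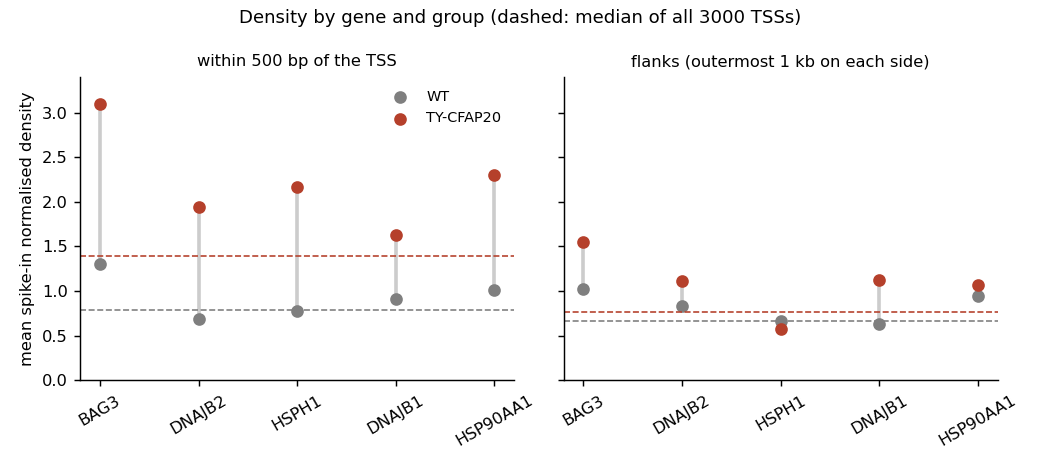
Mean spike-in normalised density (y axis) of the 5 genes in WT (grey) and TY-CFAP20 (red), within 500 bp of the TSS on the left and in the outermost 1 kb on each side on the right. Each point is 1 group average with no error available, and dashed lines are the medians of all 3000 TSSs. TY-CFAP20 is above WT at each TSS, from 1.63 at DNAJB1 to 3.10 at BAG3, while in the flanks HSPH1 has less TY-CFAP20 than WT, a direction that turns over the outermost 2 kb (0.0248).

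The flanks, the outermost 1 kb on each side, set these genes apart from each other. At BAG3 they were high in both groups, at 1.55 in TY-CFAP20 and 1.02 in WT, ranking 17 and 76. TY-CFAP20 exceeded WT there by 0.529, rank 55 of 3000, and its part in the difference at the TSS was not tested. At DNAJB1 TY-CFAP20 flanks were 1.12 and WT flanks 0.625. Their ratio of 1.79 was as high as the ratio of 1.78 at its TSS. At DNAJB2 they were 1.11 and 0.828, and at HSP90AA1 1.07 and 0.944. HSPH1 alone of the 5 had lower flanks in TY-CFAP20, at 0.569 against 0.664, with 0.378 against 0.736 on its gene body side. On its upstream side TY-CFAP20 was the higher of both, at 0.761 against 0.593. Over the outermost 2 kb the direction turned, from a flank difference of -0.0949 to 0.0248. TY-CFAP20 flanks were higher than WT flanks at 71.5% of all TSSs.

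Set against its own flanks, HSPH1 had the sharpest TY-CFAP20 signal of the 5 genes. Its TSS density was 3.81 times its flanks in TY-CFAP20, rank 36 of 3000, and 1.17 times in WT. HSP90AA1 had 2.15 and 1.07 times, DNAJB2 1.75 and 0.823 times, and BAG3 1.99 and 1.27 times. DNAJB1 had 1.46 times in both groups, so that its TSS stood over its flanks by the same multiple with and without the tag. Divided by the WT multiple, the TY-CFAP20 multiple was 3.24 at HSPH1 (rank 49), 2.13 at DNAJB2 (rank 480) and 2.02 at HSP90AA1 (rank 584). At BAG3 this ratio was 1.56 (rank 1354), near the median of 1.49, and at DNAJB1 it was 0.994 (rank 2539). The multiple was higher in TY-CFAP20 than in WT at 4 of the 5 genes and at 84.3% of all TSSs. The medians over all TSSs were 1.81 in TY-CFAP20 and 1.16 in WT.

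Along the chromosomes, the ratio of TY-CFAP20 to WT flank density over 11 neighbouring TSSs was near the median of 1.17 at BAG3 (1.19), DNAJB2 (1.18), HSPH1 (1.17) and HSP90AA1 (1.17). At DNAJB1 it was 1.45, rank 38 of 3000, and its part in the difference at DNAJB1 was not tested. Division of TY-CFAP20 by this ratio, called local scaling, lowered the difference at DNAJB1 to 0.208 and left 1.31 at BAG3, 1.08 at HSPH1, 0.965 at DNAJB2 and 0.957 at HSP90AA1. The median of the 5 genes was then 0.965 and that of all TSSs 0.389. TY-CFAP20 was above WT at 5 of the 5 genes and at 87.6% of all TSSs on this scale, and by 1.5-fold or more at 4 of the 5 and at 17.5% of all.

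The shape of the signal differed from gene to gene. HSP90AA1 had its largest difference, 2.88, at 90 bp, where TY-CFAP20 reached 4.06 and WT 1.18 (running mean of 110 bp). The stretch around it that stayed above the level midway from flank to summit was -60 to 300 bp, called its span below. The run of 3 heat shock units shown above lies inside this span, as the matches of HSPH1 and the pair at 53 bp of BAG3 lie inside the spans given below for those genes. Both pairs of DNAJB1 lie outside its spans, near and far. How often a pair falls inside the span was not counted over all TSSs, and the spans lie where promoter motifs are searched. Nothing is therefore read from these positions. DNAJB2 had its largest difference, 2.84, at 30 bp (3.38 and 0.548), with a span from -80 to 280 bp. These 2 spans, each 360 bp wide, were the widest of the 5 genes, against 330 bp at HSPH1, 280 bp at BAG3 and 220 bp at DNAJB1. At DNAJB2 the difference was 1.64 in the 500 bp after the TSS and 0.905 in the 500 bp before it. HSP90AA1 was skewed in the same direction, with 1.79 and 0.812, and so was DNAJB1, with 1.01 and 0.414. The GENCODE starts lie 99 bp (DNAJB2) and 147 bp (HSP90AA1) downstream of these TSSs, so the 500 bp after them include bases upstream of those starts. Both summits, at 30 and 90 bp, lie upstream of them. The skew was not measured from the GENCODE starts.

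At HSPH1 and BAG3 the mean differences in the 500 bp before and after the TSS were closer to each other. At HSPH1 the largest difference was 2.155 at 50 bp (2.69 and 0.535), over a span from -120 to 210 bp. The 500 bp before its start had a difference of 1.46 and those after it 1.33. Further annotated starts of the same gene lie at -112 and -461 bp. At BAG3 TY-CFAP20 averaged 3.02 in the 500 bp before the TSS and 3.20 in those after it. Its largest difference, 2.85, was at -90 bp, where WT was 0.646, over a span from -210 to 70 bp, while TY-CFAP20 alone was highest at 280 bp with 3.83. BAG3 also had the largest differences of the 5 genes further into the gene, with of 1.28 from 500 to 1000 bp and 0.839 from 1000 to 1500 bp. Over all TSSs the means of these steps were 0.329 and 0.196.

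DNAJB1 had its largest difference away from its TSS. It lay at -2200 bp, where TY-CFAP20 was 2.46 and WT 0.523, a difference of 1.94 over a span from -2330 to -2110 bp (chromosome 19, 14520530 to 14520750). No annotated exon overlaps this span, which lies within longer transcripts of DNAJB1 and of TECR, a fatty acid elongation gene on the opposite strand. Within 1 kb of the TSS the largest difference was 1.56 at 210 bp (2.39 and 0.833) over a span from 60 to 290 bp, a search added after the upstream summit was seen. From -1000 to -500 bp DNAJB1 had less TY-CFAP20 than WT, by -0.283. The gene is 3651 bp long and ends inside the window, and beyond its end, from 4500 to 5000 bp, TY-CFAP20 was 1.62 and WT 0.718.

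**Figure D2:**
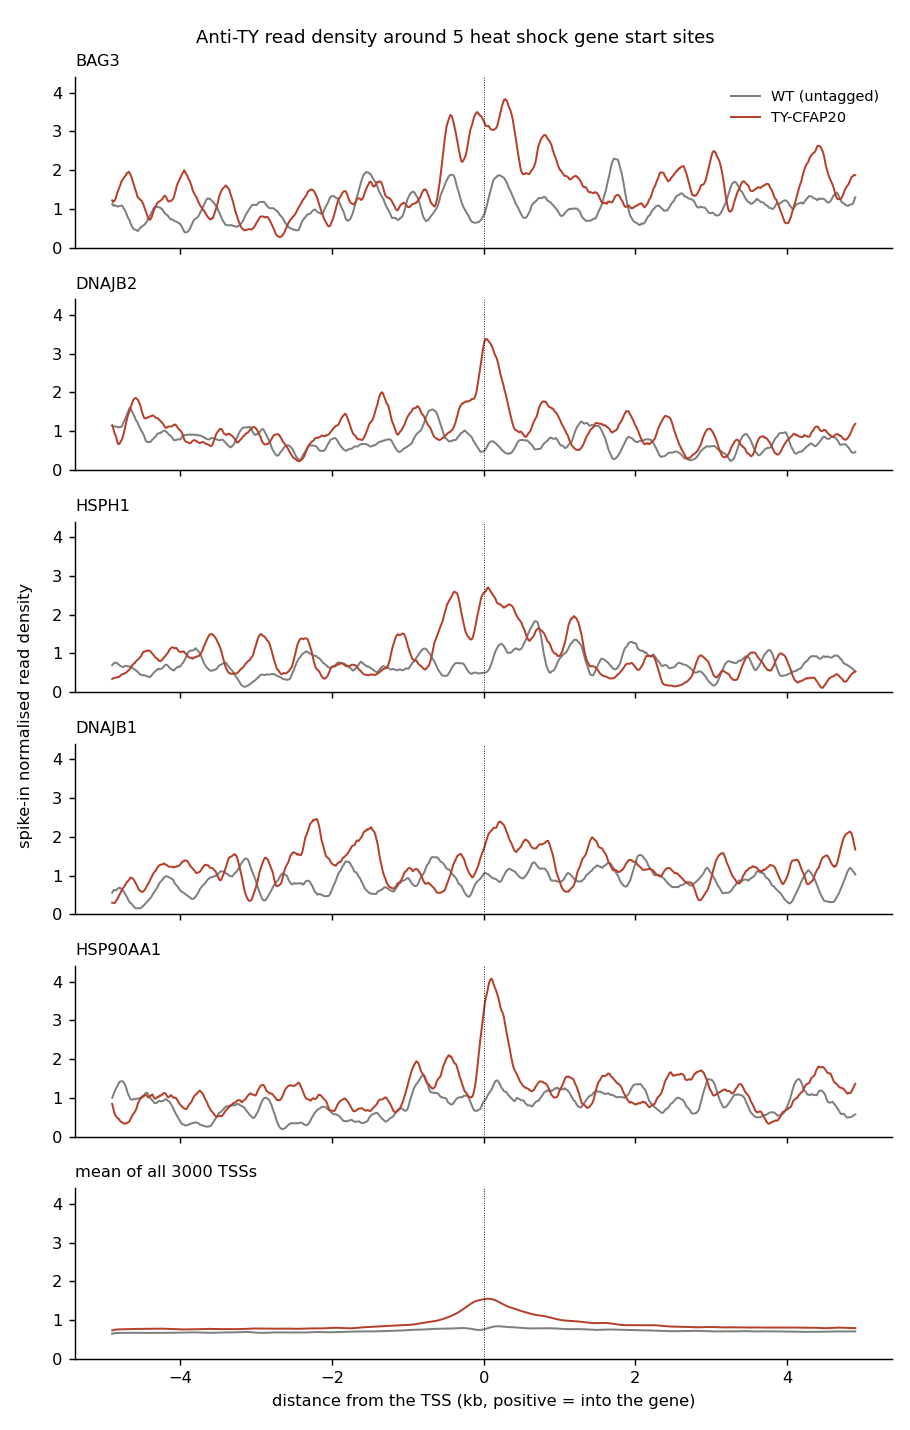
Spike-in normalised read density (y axis, running mean of 110 bp) against distance from the TSS in kb (x axis) for the 5 genes and for the mean of all 3000 TSSs, with WT in grey and TY-CFAP20 in red. The largest differences lie at 30 bp in DNAJB2, 50 bp in HSPH1, 90 bp in HSP90AA1 and -90 bp in BAG3, while in DNAJB1 TY-CFAP20 is 2.46 at -2200 bp and 1.69 at the TSS itself. Single genes are noisier than the mean, since each line is 1 pair of averages.

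The other 1 kb windows of each gene show how far the difference varied away from the TSS. At BAG3 the 8 other windows ranged from -0.0538 to 1.06, at HSPH1 from -0.344 to 0.409, at HSP90AA1 from 0.0572 to 0.426 and at DNAJB2 from 0.0613 to 0.477. At these 4 genes the TSS window exceeded every other window, a count that was not made over all TSSs. The mean of all TSSs also had its largest difference, 0.780, near the TSS (-10 bp). Since the genes were chosen for their difference at the TSS, nothing is read from this count. At DNAJB1 the range was 0.119 to 0.958, and 1 of the 8 windows exceeded the 0.7125 of the TSS. The pair of annotated neighbours within 5 kb were both on the opposite strand. TUBA4A, a tubulin gene, starts at -1365 bp from DNAJB2, and a transcript of TECR starts 1335 bp inside DNAJB1. No other TSS of the authors' list lies within 10 kb of the 5 genes.

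The profile of the difference was compared between genes over 100 bins of 100 bp, as a description, with r not free of what the bins share (neighbouring positions, the same libraries). With the mean profile of all TSSs, r was 0.66 at BAG3, 0.66 at DNAJB2, 0.63 at HSPH1, 0.56 at HSP90AA1 and 0.18 at DNAJB1, and the median of all TSSs was 0.34. Among the 5 genes DNAJB2 and HSP90AA1 were most alike (0.57), and HSPH1 and DNAJB1 least (-0.02). Of the 3000 TSSs, 29 had a higher r with DNAJB2 than HSP90AA1 had, a count that includes DNAJB2 itself. The closest profiles in the tables were COQ4 (0.64) and MGLL (0.61) for BAG3, RP11-158H5.7 (0.68) and MED18 (0.67) for DNAJB2, IPO5 (0.64) and ZNF252P-AS1 (0.64) for HSPH1, HADH (0.49) and VPS36 (0.47) for DNAJB1, and CCDC97 (0.63) and KBTBD7 (0.63) for HSP90AA1. No chaperone gene of the lists used below was among them. Only 20 of the 3000 TSSs belong to such genes, so nothing is read from this.

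Nascent transcription, measured by BrU-seq in WT gene bodies (on a scale that the labels do not state), spread over more than 100-fold between the 5 genes. DNAJB1 was at 225, rank 10 of the 3000 TSSs. HSP90AA1 was at 41.6 (rank 102), BAG3 at 14.5 (rank 348) and DNAJB2 at 7.78 (rank 643). HSPH1, at 1.65 (rank 1965), lay below the median of 2.55 of these 3000 TSSs. Its rank was also 1965 among the 6325 listed TSSs with a BrU-seq value, so every listed TSS above it is among the 3000. The background thus leans to transcribed TSSs, and a rank within it does not make HSPH1 a poorly transcribed gene. Among these 5 genes, chosen on the difference, the order by transcription was not the order by difference. The most transcribed of them had the smallest difference and the least transcribed the second largest. The part of transcription in the difference was not tested. Within its class of 600 TSSs of like BrU-seq density, 2 TSSs had a larger difference than BAG3, 7 than HSPH1, 28 than DNAJB2, 30 than HSP90AA1 and 279 than DNAJB1. The medians of these classes were 0.540 (HSPH1, class 2 of 5 from the lowest), 0.583 (DNAJB2, class 4) and 0.672 (the other 3, class 5). The list was chosen for standing above matched genes in this difference, so the counts within classes are a description only.

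DRIP, which measures the RNA-DNA hybrids of R-loops, was above its median of 528 at all 5 start sites in WT. HSP90AA1 had 2213 (rank 208) and DNAJB1 2198 (rank 211), which are nearly equal while their differences are 1.29 and 0.7125. DNAJB2 had 1263 (rank 502), HSPH1 915 (rank 783) and BAG3 632. Of these 5 genes, chosen on the difference, the one with the largest TY-CFAP20 difference had the lowest DRIP signal. Among all TSSs in classes by DRIP, the median difference was 0.581 in the class of BAG3 and 0.601 in that of HSPH1. It was 0.624 in the highest class, which holds the other 3 genes. HSPH1 stood higher by DRIP than by BrU-seq.

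**Figure D3:**
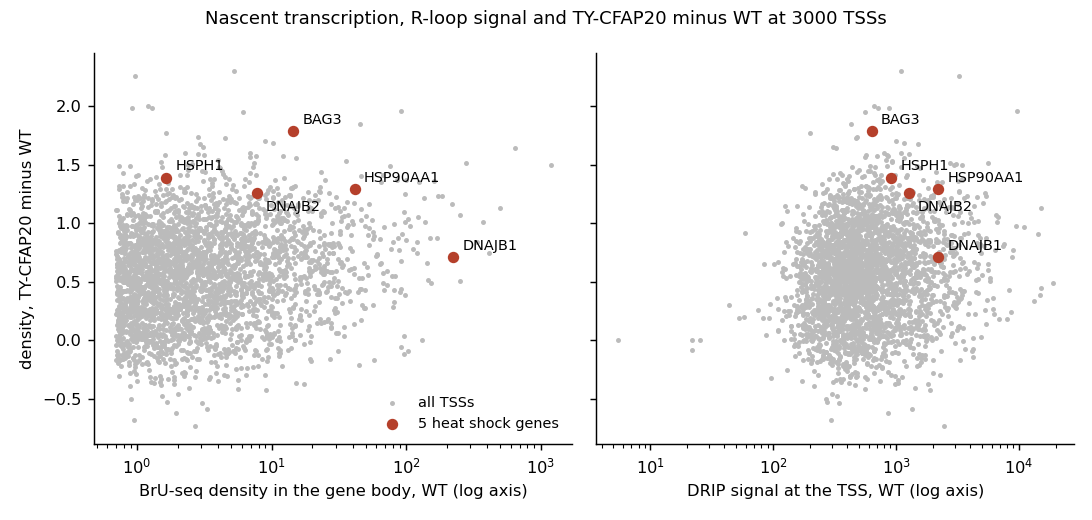
TY-CFAP20 minus WT density within 500 bp of the TSS (y axis) against BrU-seq density in WT gene bodies (left x axis, log) and DRIP signal at the TSS in WT (right x axis, log) for 3000 TSSs (grey), with the 5 genes in red. The 5 genes are spread from 1.65 to 225 in BrU-seq and from 632 to 2213 in DRIP, with BAG3 highest and DNAJB1 lowest in difference.

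GC content moved with the difference over all TSSs. In 5 classes of 600 TSSs by GC within 500 bp (a split added after seeing the data), the median difference was 0.214 in the lowest class, then 0.528, 0.597, 0.677 and 0.786, while median WT density only went from 0.730 to 0.804. The 5 genes were in the upper 2 classes, with 63.8% at DNAJB2, 64.3% at HSPH1, 68.8% at BAG3, 72.2% at DNAJB1 and 75.9% at HSP90AA1, against a median of 60.4%. Within its own GC class, 7 TSSs had a larger difference than HSPH1, 8 than BAG3, 26 than DNAJB2, 53 than HSP90AA1 and 346 than DNAJB1. These counts reuse the difference on which the genes were chosen, and the part of GC content in it was not tested. GGGCGG, the GC box, on either strand was in all 5 TSS windows and in 60.2% of all. TATAAA was in 1 (DNAJB2) and in 8.30% of all, and CCAAT in 2 (HSPH1 and DNAJB1) and in 36.3%. The match at DNAJB2 was TTTATA at -141 bp, which is TATAAA on the opposite strand. Only the exact letters were searched, so TATATAAG and TATATAG in the sequences shown for HSP90AA1 and DNAJB1 were not counted. TSSs with a heat shock pair had a median difference of 0.486 and those without 0.584. Of the 11 TSSs with the 3-unit run, 7 had more TY-CFAP20 than WT and the median was 0.281.

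None of the 5 genes had a listed origin centre within 50 kb of its start. The authors' list holds origin centres from OK-seq, which sequences Okazaki fragments, and its name speaks of a selection, so that an origin outside it could lie closer. BAG3 was nearest, with a centre 53.6 kb downstream of its TSS, at 119705001 on chromosome 10, which is 27.2 kb past the end of the gene. There were 8 centres within 1 Mb of BAG3. For HSPH1 the nearest was 430 kb downstream, for HSP90AA1 495 kb upstream, for DNAJB1 652 kb downstream and for DNAJB2 3.38 Mb downstream. DNAJB2 had no centre within 1 Mb, and only 31 of the 3000 TSSs were farther from one. The median distance over all TSSs was 286 kb, and 19.4% had a centre within 50 kb.

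Other chaperone genes gave the setting for these values. Of 93 genes in 7 lists of chaperones and their partners, 20 were in the density tables, 15 of them beside the 5 genes. Of these 15, 14 were higher in TY-CFAP20, against 91.2% of all TSSs, and 6 by at least 1.5-fold, against 34.9%, so that both counts were near the background. Their median difference was 0.671 and that of all TSSs 0.571. With local scaling it was 0.511, again for 14 of 15 above WT. As deposited, none of the 15 exceeded the difference of DNAJB2 and 6 exceeded that of DNAJB1, in the measure on which the 5 genes were selected. With local scaling PDIA4 (0.980) exceeded DNAJB2 (0.965) and HSP90AA1 (0.957), and 14 of the 15 exceeded DNAJB1 (0.208).

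HSF2, a heat shock factor, had 1.78 in TY-CFAP20 and 0.710 in WT. DNAJC8, a J-domain protein of the splicing machinery, had 1.82 and 0.792, and DNAJB12, of the endoplasmic reticulum membrane, 2.35 and 1.33. SERPINH1, the collagen chaperone, had 1.65 and 0.784 with a BrU-seq density of 64.3. BAG4 and DNAJC21 had differences of 0.733 and 0.732, the prefoldin subunit PFDN4 0.680, BAG6 0.671, the Hsp70-Hsp90 adaptor STIP1 0.594, the Hsp90-binding cyclophilin PPID 0.523 and HSPA13, an Hsp70 relative, 0.353.

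The lowest values were at PDIA4, a disulfide isomerase (0.190), the Hsp70 exchange factor HSPBP1 (0.0521), DNAJB6 (0.0507) and the prefoldin subunit VBP1 (-0.356). With local scaling they were 0.980, 0.278, 0.670 and -0.0122, and of these 4 PDIA4 and DNAJB6, both on chromosome 7, moved furthest. DNAJB6 is the other chaperone gene of the tables whose TSS window holds a 3-unit run. No mitochondrial chaperone of the list was in the tables.

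**Figure D4:**
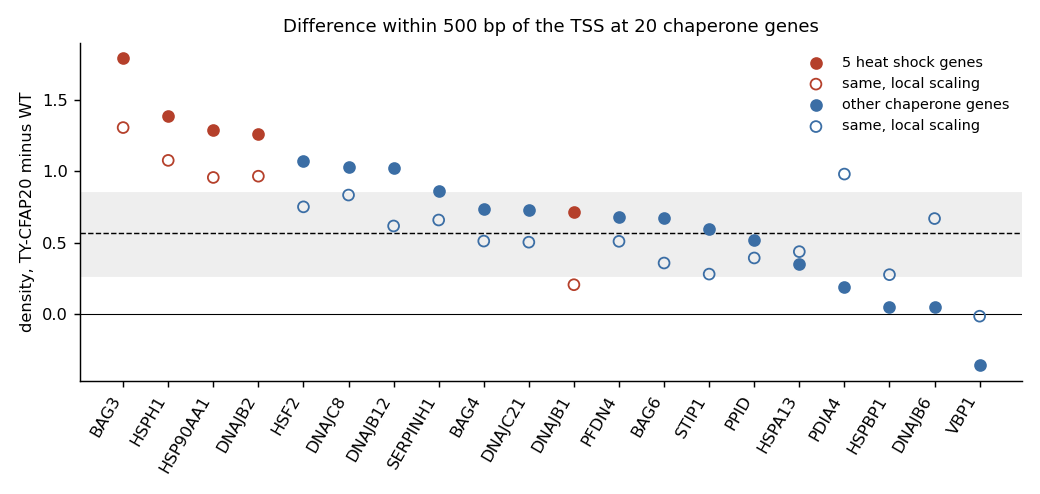
TY-CFAP20 minus WT density within 500 bp of the TSS (y axis) at 20 chaperone genes in order of size, with the 5 heat shock genes in red and the 15 others in blue. Open circles are the values after local scaling, the dashed line is the median of all 3000 TSSs as deposited (0.571) and the band their 25th to 75th percentile. BAG3, HSPH1, HSP90AA1 and DNAJB2 lie above the band and DNAJB1 within it.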

How the data were processed

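Anti-TY ChIP-seq of 3 WT and 3 TY-CFAP20 libraries was deposited as 1 table of read density signal per group. The authors scaled it to the spike-in and took the mean of the replicates, per the file names. The calculation of that scaling is not given in the labels. BrU-seq and DRIP signal columns and a ratio with no named assay were also deposited. The ratio was not used. The reads were mapped to hg38 with BDGP6 as the spike-in genome, per the labels. BWA 0.7.17 and STAR 2.7.7a are aligners listed in the submitters' processing notes, which also list HOMER 4.8.2, R 4.0.5, SAMtools 1.11 and Trim Galore 0.6.5, without roles. Library totals are not known from these averages. All columns used could be assigned (0 could not).

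Density was averaged from -500 to 500 bp. Log2 ratios used a pseudocount of 0.668, so low densities give ratios that are too small. TSSs were read as 1-based positions, and GENCODE v44 and the hg38 sequence gave annotation and GC content. Promoters are from RefSeq (GRCh38.p14), where all 5 genes matched by symbol. The members and lists were chosen with earlier results of these data known. Named genes were the 5 members, all list genes in the tables, the 2 closest profiles of each member and neighbours within 5 kb. Calculations were checked on simulated data. No test was run, since each group has 1 average. Python 3.11.15, numpy 2.4.6, pandas 2.3.3 and matplotlib 3.10.9 were used.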

Additional observations from a re-analysis of the deposited data

How the results depend on the processing

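Without values per replicate, a result counted as moved where it changed by more than 1.5 times. No paired analysis was possible because the values are group averages. This also barred leaving out single replicates. The median difference of 1.29 was 0.806 within 1000 bp and stayed within 1.5 times in the 6 other settings of window and scaling. Among these, the multiples of own flank (0.928) are not in density units, so that value cannot be set against 1.29. The count of 4 genes at 1.5-fold was 0 with 4 times the pseudocount and 0 at 2-fold, both of which lower it by construction, and 3 to 5 in the other settings. The count of 2 genes with a heat shock element was 1 for the 3-unit run. DNAJB1 reversed as multiples of its own flank, with a difference of -0.00949 and a log2 ratio of -0.00938, and the flank difference at HSPH1 (-0.0949) became 0.0248 over the outermost 2 kb. The cause was not tested. Single-gene values moved in 27 other cases without changing sign and kept within 1.5 times in 80. Leaving out TSSs with a WT density under 0.2 changed the share at 1.5-fold from 34.9% to 35.1%. The search for a summit within 1 kb and the GC classes were added after seeing the data. Depth per library is unknown.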
